A study of Homo sapiens with 12 samples.

Results

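Metformin and FK866 reach the same cofactor from different sides. Complex I, the target of metformin, oxidizes NADH to NAD+ at the entry of the mitochondrial respiratory chain, so that its block leaves the NAD pool reduced, holds back ATP and aspartate production, and is known to raise the transcription factor ATF4. NAMPT, the target of FK866, makes nicotinamide mononucleotide from nicotinamide in the salvage route that most tumour cells rely on, so that its block lowers the total pool of NAD+ and NADH. The comparison set the 3 libraries of cells given metformin alone (Met) against the 3 libraries of cells given FK866 alone (FK), 6 of the 12 libraries of the series, and asked which genes and functions separate inhibition of complex I from inhibition of NAMPT. The libraries were chosen by their treatment labels.

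All libraries came from 1 cell line, KP4, a human pancreatic ductal carcinoma line that the labels give as wild type. Cells received DMSO as vehicle, 10 mM metformin (Met), 5 nM FK866 (FK) or both drugs together (Met+FK) for 24 h, and total RNA was depleted of ribosomal RNA before sequencing. The DMSO libraries served as the reference for direction, and they and the Met+FK libraries also entered the estimate of the spread that all groups share. Each drug was present at 1 dose and 1 time, so the comparison is of these doses and not of matched inhibition. Nothing in the labels says that the 3 libraries of a group were separate cultures, and the p-values then measure only the spread between these samples, which may be technical.

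The Met libraries held 31684313 to 34775176 counted read pairs and the FK libraries 30667735 to 39984311, a depth at which the median gene tested had a standard error of 0.12 on its log2 fold change. Values are normalized counts, that is read pairs per gene divided by a size factor per library, and the totals of the FK libraries exceeded those of all Met libraries. Of the ductal markers, KRT18 (9398 to 18720 over the 12 libraries), SOX9 (3405 to 5140) and KRT8 (2217 to 3222) were high. KRT7 (209 to 314), MUC1 (66.1 to 157), CDH1 (24.2 to 86.5) and KRT19 (14.6 to 75.0) were lower, and EPCAM (3.78 to 12.5) was near the floor. The mesenchymal markers were divided as well. VIM (93660 to 121900), CDH2 (2818 to 3499), ZEB1 (544 to 1272) and FN1 (298 to 455) were present, ZEB2 was at 0 to 4.18 and TWIST1 at 0 throughout. The summed level of 5 markers of acinar and islet cells was at most 1.89 in any DMSO, Met or FK library, and the summed level of 3 endothelial markers was 22.0 to 35.5 in Met and 46.3 to 54.0 in FK. Of the immune markers, CD3E and LYZ were at 0 to 3.14, and PTPRC (101 to 304) and CD68 (721 to 1010) were not. The slope of a library's log2 values on the GC content of the gene, per 10 percentage points, was -0.08, -0.14 and 0.08 in Met. It was 0.00, -0.25 and -0.02 in FK, so FK replicate 2 stood apart from the other 5 Met and FK libraries. In DMSO it was 0.20, 0.04 and 0.18, above all FK libraries. Fits with the GC trend removed were read for Met against FK only, so its effect on values against DMSO was not tested. The median GC content was 51.7% for genes higher in Met, 47.9% for genes lower in Met and 48.5% for all genes tested.

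Metformin and FK866 left KP4 cells with different transcriptomes. Of 15376 genes with a mean of at least 10, 1243 (8.08%) were higher in Met than in FK and 1081 (7.03%) were lower, 15.1% in all, counting genes with an adjusted p under 0.05 by limma-trend and a fold change over 1.5 (DEGs). Over all genes tested the median log2 fold change was -0.01. With the libraries scaled to the same total, which moved that median to 0.09, the split became 1637 higher and 805 lower. Against DMSO, the same fit called 1964 genes higher and 1566 lower in Met, and 420 higher and 116 lower in FK, so more genes departed from DMSO under metformin at these doses. Of the DEGs with no overlap between the groups and a mean of 100 or more, those furthest apart were BEX2, KLHDC7B, HRK, LAMP3 and ADM2 above FK (log2 fold changes of 3.55, 3.15, 2.95, 2.54 and 2.49) and SULT1B1, CALB1, AL139393.3, COL1A1 and CNIH2 below it (-2.84, -2.31, -2.21, -2.06 and -2.05). Counts of DEGs in the gene lists below are to be read against the 8.08% and 7.03% of all genes.

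**Figure D1:**
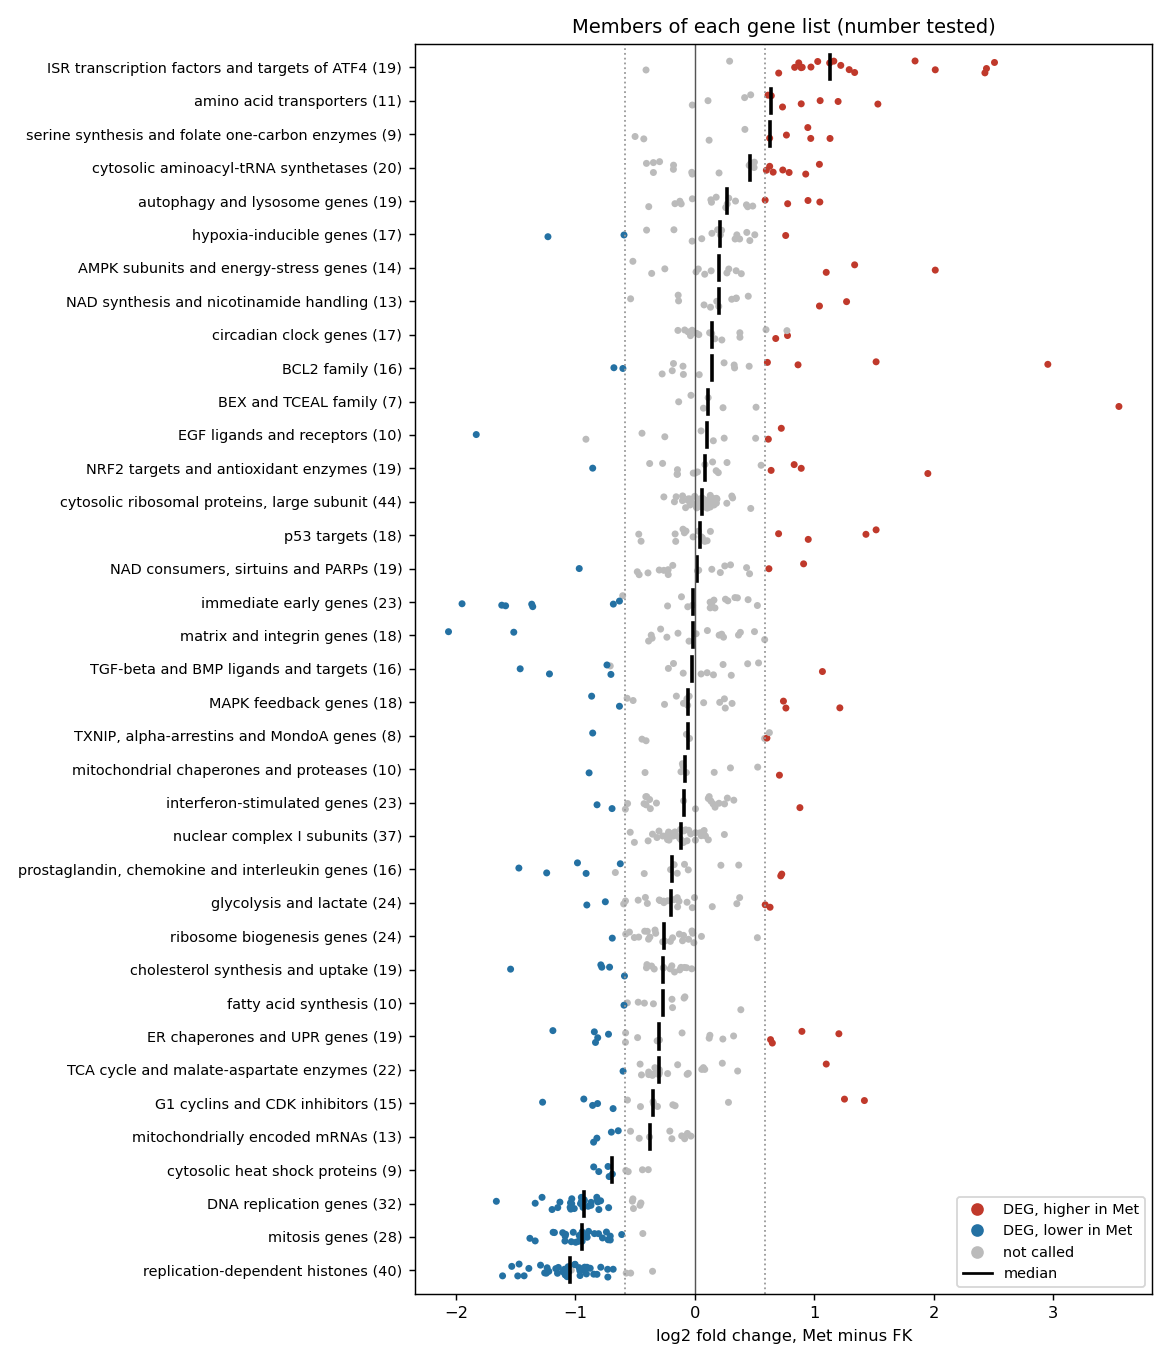
Log2 fold change of Met minus FK (x axis) for the tested members of each of 37 gene lists (y axis, number tested in parentheses), with DEGs higher in Met in red, DEGs lower in Met in blue, genes not called in grey, the median of the list as a black bar and dotted lines at a fold change of 1.5. Targets of ATF4 lie to the right, with a median of 1.13, and histones, mitosis genes and DNA replication genes to the left, with medians of -1.05, -0.95 and -0.93.

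Transcripts of the integrated stress response (ISR) stood higher in Met than in FK, with the highest median of the 37 lists. In this pathway kinases that sense stress phosphorylate the initiation factor eIF2alpha, which lowers general translation and favours that of ATF4. ATF4 with its partners of the C/EBP and CHOP group then switches on genes of amino acid supply and of redox defence. Only RNA was measured here, and not phosphorylation or translation. Of 19 tested ISR transcription factors and targets of ATF4, 17 were DEGs higher in Met and none was a DEG lower in Met, with a median of 1.13. The 37 lists were chosen with earlier results of these data known. The study names ATF3, DDIT4, STC2, CEBPB and PPP1R15A of this list from the same libraries. The rank and the count are therefore descriptions and no independent support. The medians of the same 19 genes against DMSO were 1.80 for Met and 0.50 for FK. FGF21, the remaining member of the list, was under the level required for a test.

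Many of these genes are known to be bound through a C/EBP-ATF element, a composite site read by ATF4 and C/EBP proteins. The letters TGATGNAA were searched on both strands in the 250 bases before and 50 after the start of each gene in RefSeq (GRCh38.p14), which held 11409 of the 15376 genes tested. They stood in 3.67% of all 27305 promoters of the table, in 1.8% of those of the genes tested, in 38 of 857 promoters of DEGs higher in Met (4.43%) and in 13 of 818 of DEGs lower in Met (1.59%). Among DEGs higher in Met they were found in 3 of 16 promoters of the ISR list (ATF3, CHAC1 and ASNS), 4 of 7 of the aminoacyl-tRNA synthetases, 2 of 6 of the amino acid transporters and 1 of 4 of the serine and folate enzymes. The last 3 lists were added to the search after the data were seen. The stretches below, each upstream of the start and written 5′ to 3′ in the direction of its gene, carry the match in capitals. They are shown because each belongs to a gene higher in Met, and because the match reads forward in ATF3, ASNS and MTHFD1L and as its reverse complement in CHAC1 and AARS.
CHAC1 (chr15:40953232-40953299, plus strand): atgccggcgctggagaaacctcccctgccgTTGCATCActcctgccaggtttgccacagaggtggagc
ATF3 (chr1:212565186-212565253, plus strand): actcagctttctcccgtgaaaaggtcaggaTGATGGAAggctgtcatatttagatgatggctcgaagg
ASNS (chr7:97872439-97872506, minus strand): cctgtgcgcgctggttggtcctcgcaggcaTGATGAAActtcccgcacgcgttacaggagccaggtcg
MTHFD1L (chr6:150866327-150866394, plus strand): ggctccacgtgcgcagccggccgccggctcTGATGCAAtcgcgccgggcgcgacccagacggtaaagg
AARS (chr16:70289656-70289723, minus strand): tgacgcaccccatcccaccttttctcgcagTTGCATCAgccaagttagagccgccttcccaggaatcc
A match is a description of the letters, and no binding was measured here.

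ATF4, the central transcription factor of the response, read 26928, 25882 and 27211 normalized counts in the Met libraries against 15637, 13759 and 13611 in FK, with a mean of 14469 in DMSO. All 3 Met libraries lay above all FK and DMSO libraries, and the FK and DMSO ranges overlapped. The log2 fold change of Met against FK was 0.90 ± 0.07 (SE; adjusted p = 3.68e-07, limma-trend). DDIT3, which encodes the pro-apoptotic factor CHOP, was at 6439, 5411 and 4955 in Met and 1174, 1101 and 855 in FK, a log2 fold change of 2.43 ± 0.13 (adjusted p = 1.31e-08, limma-trend). DDIT3 overlaps MARS, itself higher in Met, and the strand setting of the counting is not given in the sources used here, so reads of the pair may have been exchanged. TRIB3, a pseudokinase that dampens ATF4 and CHOP, was at 9741, 8766 and 10943 in Met and 2082, 1669 and 1677 in FK, close to the DMSO mean of 1597. Its log2 fold change was 2.44 ± 0.12 (adjusted p = 5.22e-09, limma-trend). CHAC1, which degrades glutathione, stood at 1663, 1875 and 1781 in Met against 561, 483 and 442 in FK.

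ATF3, a stress-induced repressor, was raised by both drugs but to different levels. It read 4030.2, 3792 and 3939.5 in Met, 1611, 1719 and 1479.6 in FK and 625, 609.9 and 671 in DMSO, with no overlap between any pair of the 3 groups. Met exceeded FK by 1.29 ± 0.08 (adjusted p = 2.63e-08, limma-trend), while the log2 fold changes against DMSO were 2.62 in Met and 1.33 in FK, both DEGs. STC2, a secreted glycoprotein, had the same order (1144 ± 106 in Met, 561 ± 59.2 in FK and 327 ± 23.1 in DMSO, mean ± SD, n = 3), as had DDIT4, an inhibitor of mTORC1 (8007 ± 541, 3167 ± 176 and 2192 ± 137). Others of the list were raised in Met and near DMSO in FK. Among them PPP1R15A, which encodes the eIF2alpha phosphatase subunit GADD34, differed by 1.22 with FK at -0.04 against DMSO, and CEBPB by 0.84 with FK at 0.05. NUPR1, a stress-induced chromatin factor, differed by 2.51 at lower counts (113 ± 14.0 in Met, 19.3 ± 4.82 in FK and 13.4 ± 3.29 in DMSO). The 2 members that were not DEGs were GDF15, a secreted stress cytokine at 1645, 1623 and 1989 in Met and 1403, 1443 and 1433 in FK, and ATF5. GDF15 differed by 0.29 (95% interval 0.10 to 0.48, which like the other intervals below is of the single gene and not adjusted), and it was a DEG against DMSO (505, 478 and 524) in both drugs, so this marker of the response did not separate them at the thresholds used. ATF5 differed by -0.41, below the fold threshold and in the opposite direction to the rest of the list.

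**Figure D2:**
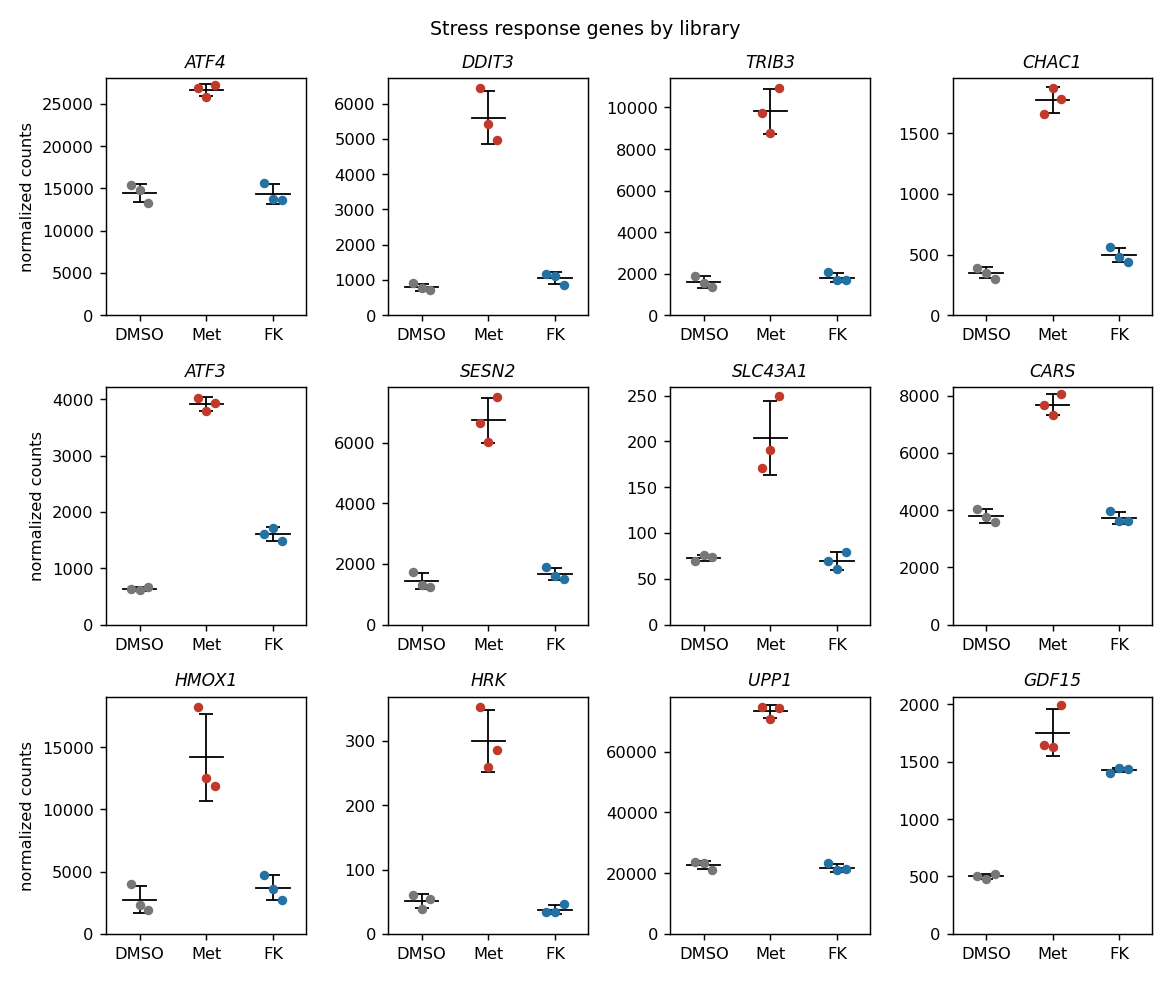
Normalized counts (y axis, linear, from 0) of 12 stress response genes in the 3 DMSO, 3 Met and 3 FK libraries, with the mean as a line and the SD as an error bar (n = 3). Met stands alone for ATF4, DDIT3, TRIB3 and UPP1, ATF3 is intermediate in FK, and GDF15 is raised in both drugs.

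Genes of amino acid supply followed the ISR list. Of 9 tested enzymes of serine synthesis and folate one-carbon metabolism, 5 were DEGs higher in Met and none was lower (median 0.63). PSAT1, the transaminase of the serine pathway, was at 25679, 26396 and 24687 in Met and 13388, 13638 and 12834 in FK, and PHGDH, its first enzyme, differed by 0.97 ± 0.08 (adjusted p = 3.08e-07, limma-trend). The mitochondrial folate enzymes MTHFD1L (0.77), MTHFD2 (0.63) and ALDH1L2 (1.13) were the other DEGs, whereas the cytosolic SHMT1 (-0.50) and MTHFD1 (-0.43) had negative values under the fold threshold. The medians against DMSO were 0.71 in Met and -0.09 in FK, and no enzyme of the list was a DEG in FK against DMSO.

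Of 11 amino acid transporters tested, 7 were DEGs higher in Met and none was lower (median 0.64). SLC43A1, a carrier of large neutral amino acids, differed most, with 171, 191 and 249.6 in Met and 68.9, 60.2 and 79.2 in FK (1.53 ± 0.15, adjusted p = 2.19e-06, limma-trend). The neutral amino acid carrier SLC1A4 (1.20) and the glycine carrier SLC6A9 (1.05) had FK values within 0.14 of DMSO on the log2 scale. SLC7A11, the cystine importer that feeds glutathione synthesis, was raised in both drugs and further in Met (8793 ± 1343 in Met, 4822 ± 1366 in FK and 2321 ± 519 in DMSO), a difference of 0.89 ± 0.18 (adjusted p = 0.00144, limma-trend). Of 20 cytosolic aminoacyl-tRNA synthetases, 7 were DEGs higher in Met (CARS, GARS, MARS, SARS, AARS, NARS and EPRS) and none was lower (median 0.46). CARS, which charges cysteine tRNA, led with 7686, 7318 and 8063 in Met and 3969, 3604 and 3627 in FK. The list was divided, since RARS (-0.41), FARSA (-0.35), FARSB (-0.35) and KARS (-0.30) had negative values, none past the fold threshold. With the fits and scalings tried, the count of synthetases higher in Met lay between 5 and 9.

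Genes known from nutrient and energy stress were also higher in Met, in part the same genes as in the ISR list. UPP1, uridine phosphorylase, which releases ribose from uridine, was at 74584, 70847 and 74365 in Met and 23341, 20895 and 21232 in FK, while DMSO had a mean of 22706. The difference was 1.75 ± 0.07 (adjusted p = 2.67e-10, limma-trend), and FK against DMSO was -0.06. Of 14 AMPK subunits and energy-stress genes, 3 were DEGs higher in Met and none was lower. They were SESN2, a leucine sensor upstream of mTORC1 (6664, 6032 and 7512 in Met, 1905, 1607 and 1501 in FK), DDIT4, and PRKAB2, the beta2 subunit of AMPK (1.10). SESN2 and DDIT4 were already counted in the ISR list, which leaves PRKAB2 as the DEG that this list adds. The catalytic subunit genes PRKAA1 (-0.36) and PRKAA2 (0.14) were not DEGs. Of 19 autophagy and lysosome genes, 4 were DEGs higher in Met (SQSTM1, MAP1LC3B, WIPI1 and HEXA) and none was lower. SQSTM1, the cargo receptor p62, differed by 1.05 ± 0.10 (adjusted p = 2.85e-06, limma-trend), and MAP1LC3B, which encodes the autophagosome protein LC3B, by 0.95 ± 0.09 (adjusted p = 1.53e-06, limma-trend).

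HMOX1, haem oxygenase, read 18207, 12524 and 11854 in Met and 4732, 3601 and 2748 in FK, with a wide spread in Met and no overlap (1.95 ± 0.25, adjusted p = 3.17e-05, limma-trend). The ferritin heavy and light chains FTH1 (0.83) and FTL (0.64), which store iron, were also DEGs higher in Met. The 19 tested NRF2 targets and antioxidant enzymes did not move together. With SLC7A11 the list held 4 DEGs higher and 1 lower in Met (TXNIP, described below), and its median was 0.08. NQO1 (0.08), GCLC (0.18), GCLM (-0.15) and TXNRD1 (0.02), which are textbook NRF2 targets, were not DEGs. OSGIN1, an oxidative stress gene, was at 2198 ± 277 in Met and 1817 ± 135 in FK and was not called either (0.27, 95% interval 0.03 to 0.51).

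BH3-only genes, whose proteins trigger apoptosis by binding BCL2 and its relatives, went in both directions. HRK (harakiri) was at 352, 259.8 and 286 in Met and 34.0, 33.6 and 45.9 in FK, and BBC3 (PUMA) at 217, 191 and 224 in Met and 75.5, 70.8 and 72.3 in FK, with DMSO means of 50.9 and 85.4. HRK differed by 2.95 ± 0.18 (adjusted p = 3.39e-08, limma-trend) and BBC3 by 1.52 ± 0.15 (adjusted p = 2.24e-06, limma-trend). BIK (0.86) and the anti-apoptotic BCL2L1 (0.61) were the other 2 of 4 DEGs higher in Met among 16 BCL2 family genes, and BIK was not called without Met replicate 2 (0.76, adjusted p = 0.066, limma-trend) or FK replicate 3 (0.58, adjusted p = 0.093, limma-trend). With GC and length trends removed, without Met replicate 3 or without FK replicate 2, 3 were higher. HRK, BBC3 and BIK kept their calls there, and BCL2L1 lost its call. BMF (-0.68) and BCL2L11, which encodes BIM (-0.60), were lower, both close to the fold threshold, and neither was a DEG with libraries scaled to the same total or with Met replicate 1, Met replicate 2 or FK replicate 3 left out. Of 18 p53 targets, 4 were DEGs higher in Met and none was lower, with a median of 0.04. The 4 were BBC3, GADD45A, a growth arrest gene (1.43), TP53INP1 (0.70) and PHLDA3, and PHLDA3 rested on a low level (46.7 ± 11.9 in Met and 23.8 ± 6.72 in FK) and lost its call without any one of Met replicates 1 and 3 and FK replicates 1 and 2. The p53 targets CDKN1A (-0.17, 95% interval -0.33 to 0.00) and MDM2 (-0.47, 95% interval -0.72 to -0.22) were not DEGs. BEX2, of a brain-expressed X-linked gene family, was the gene furthest above FK of those with a mean of at least 100, at 618, 571 and 457 in Met, 51.0, 50.4 and 36.7 in FK and 45.0, 43.4 and 32.7 in DMSO (3.55 ± 0.17, adjusted p = 4.37e-09, limma-trend). It was alone in its family, since 6 other tested BEX and TCEAL genes lay between -0.14 (BEX3) and 0.51 (TCEAL4) and none was a DEG.

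Chaperones split by gene rather than moving as a class. Of 19 ER chaperones and unfolded protein response (UPR) genes, 4 were DEGs higher in Met and 5 lower, with a median of -0.30. The ER HSP70 HSPA5 (BiP) was at 59618, 49948 and 50852 in Met and 29702, 29868 and 26487 in FK, and ERN1, which encodes the UPR sensor IRE1, differed by 1.21 ± 0.09 (adjusted p = 2.91e-07, limma-trend). HYOU1 (0.65) and XBP1 (0.63) were the other 2. In the opposite direction, the calcium-binding chaperone CALR was at 18877, 17281 and 20210.0 in Met and 36148, 30955 and 33894 in FK (-0.84 ± 0.08, adjusted p = 1.22e-06, limma-trend). SDF2L1 (-1.19), HSP90B1 (-0.83), MANF (-0.81) and CRELD2 (-0.72), all of the ER lumen, were also lower in Met. HSPA5 thus stood above FK in the same libraries in which CALR lay below it.

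In the cytosol, 5 of 9 heat shock proteins were DEGs lower in Met and none was higher (median -0.69), and all 9 had an adjusted p under 0.05 in that direction. By their means, the genes did not all reach this difference from the same side of DMSO. BAG3, a co-chaperone of HSP70, was at 8543 ± 649 in Met, 15364 ± 1102 in FK and 15822 ± 791 in DMSO, and HSP90AB1 at 50571 ± 1364, 83226 ± 4600.3 and 90294 ± 1334, so that FK stayed near DMSO. HSP90AA1, the stress-inducible HSP90, read 49465, 56758 and 38679 in Met, 72818, 108028 and 73532 in FK and 49769.5, 74901 and 44992 in DMSO. Its log2 fold changes against DMSO were -0.21 in Met and 0.60 in FK. The DMSO range of HSP90AA1 overlapped those of both drugs, so its side of DMSO rests on the means. HSPA1A and HSPA1B, the inducible HSP70 genes, were under the level required for a test. Of 10 mitochondrial chaperones and proteases, the HSP60 partner HSPE1 was lower in Met (-0.89) and the matrix protease LONP1 higher (0.71).

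Genes of cell division were lower in Met. Of 32 DNA replication genes, 27 were DEGs lower in Met and none was higher (median -0.93), and all 32 had an adjusted p under 0.05 in that direction. Of 28 mitosis genes, 27 were DEGs lower and none was higher (median -0.95). The medians against DMSO were -1.15 in Met and -0.19 in FK for replication, and -0.75 in Met and 0.11 in FK for mitosis. RRM2, the small subunit of ribonucleotide reductase, which makes deoxynucleotides, was at 9280.1, 9659 and 9264 in Met, 30752, 28664 and 29832 in FK and 30529, 30928 and 31079.9 in DMSO. FK and DMSO overlapped, and the log2 fold change of Met against FK was -1.66 ± 0.06 (adjusted p = 1.02e-10, limma-trend). PCNA, the sliding clamp of DNA polymerase, was at 2215, 2359 and 2076 in Met and 5572, 5298 and 5256 in FK, and TYMS, thymidylate synthase, differed by -1.34. MKI67, which encodes the proliferation marker Ki-67, was at 12305, 12183 and 10845 in Met and 23456, 32878 and 24861 in FK (-1.19 ± 0.10, adjusted p = 7.42e-07, limma-trend), and the mitotic kinesin KIF20A at 2814, 2836 and 3021 in Met and 7619.7, 7134 and 7837 in FK. CDC25C (-0.44) was the mitosis gene that was not a DEG. POLD1, POLE, ORC6, GINS3 and RFC4, between -0.52 and -0.45, were the replication genes under the fold threshold. Cell cycle phase was not measured, and in bulk RNA fewer cycling cells and less of these mRNAs per cell cannot be told apart.

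Replication-dependent histone genes, whose mRNAs accumulate in S phase and mostly lack poly(A) tails, are counted in these libraries, which were depleted of ribosomal RNA and not selected for poly(A). Of 40 tested, 36 were DEGs lower in Met and none was higher (median -1.05). Their median against DMSO was -1.56 in Met and -0.54 in FK. The linker histone gene HIST1H1B was at 9228, 11072 and 12473 in Met, 36035, 25554 and 30201 in FK and 44696, 46287 and 41586 in DMSO, and the log2 fold change of Met against FK was -1.48 ± 0.15 (adjusted p = 3.11e-06, limma-trend). HIST1H3J differed by -1.61, with log2 fold changes against DMSO of -2.31 in Met and -0.70 in FK. Histone genes are near-identical copies and HIST1H3J overlaps HIST1H2AM, so single genes of this list are uncertain.

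Regulators of G1 did not move together. Of 15 tested, 5 were DEGs lower in Met and 2 were higher. The CDK4 and CDK6 inhibitor CDKN2C (-1.27) and the D-type cyclin CCND3 (-0.93) were lower, as were CDK2, CCNE2 and CDKN2D. CCND2, another D-type cyclin, was at 7505 ± 491 in Met and 3165 ± 427 in FK (1.25 ± 0.10, adjusted p = 2.28e-07, limma-trend), and the antiproliferative gene BTG1 at 3192 ± 103 and 1196 ± 106 (1.42 ± 0.08, adjusted p = 1.48e-08, limma-trend). CCND1 (-0.56) was under the fold threshold.

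**Figure D3:**
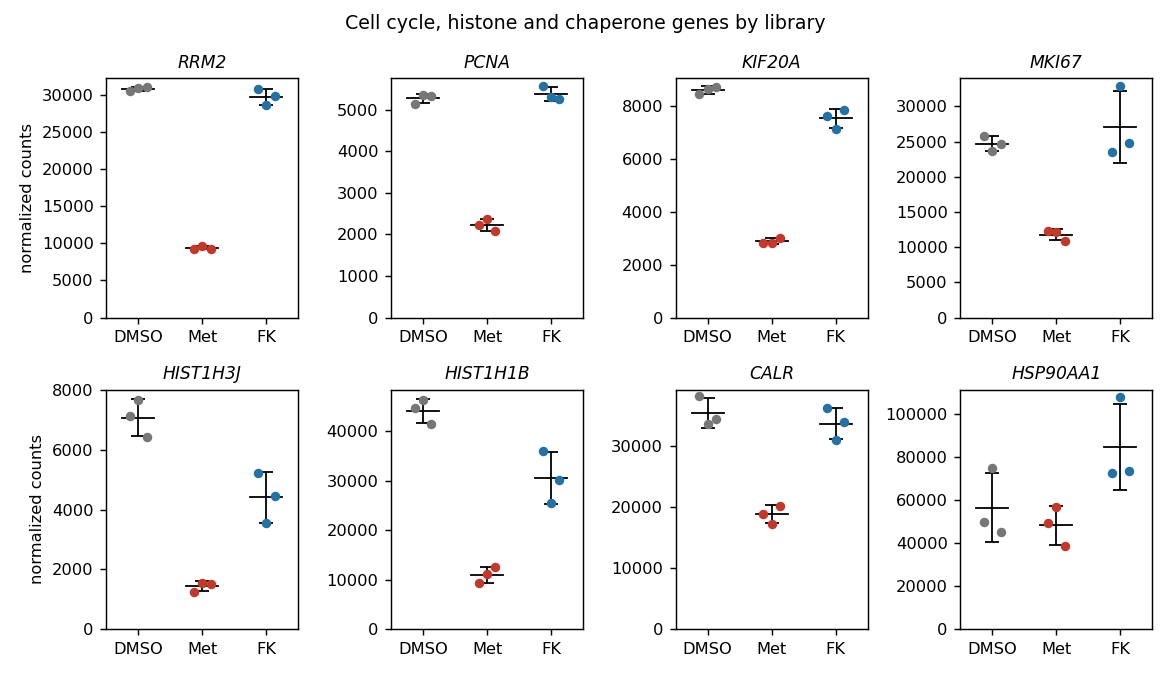
Normalized counts (y axis, linear, from 0) of 8 cell cycle, histone and chaperone genes in the 3 DMSO, 3 Met and 3 FK libraries, with the mean as a line and the SD as an error bar (n = 3). The mean of Met is the lowest of the 3 for every gene shown, and FK overlaps DMSO for RRM2, PCNA, MKI67 and CALR, lies just below DMSO for KIF20A, lies between DMSO and Met for the histones and exceeds DMSO in mean for HSP90AA1.

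Complex I, the target of metformin, is encoded partly in the nucleus and partly in mitochondria. Of 37 tested nuclear genes for complex I subunits, none was a DEG in either direction (median -0.12), and 11 had an adjusted p under 0.05 in the direction of lower in Met. By that criterion, 2995 of all 15376 genes tested were lower in Met. The medians of the 37 genes against DMSO were -0.33 in Met and -0.19 in FK. NDUFB3 differed most, at 829 ± 101 in Met and 1210.0 ± 187 in FK (-0.54 ± 0.12, adjusted p = 0.00231, limma-trend). Of 13 mitochondrially encoded mRNAs, 4 (30.8%) were DEGs lower in Met and none was higher (median -0.38), against 7.03% of all genes tested, and leaving out single libraries gave 2 (without FK replicate 3) to 6 (without Met replicate 3). MT-ND3, a complex I subunit, was at 9006, 10103 and 10950.1 in Met, 18491, 15816 and 18746 in FK and 25395, 22860.2 and 22091 in DMSO (-0.82 ± 0.10, adjusted p = 1.40e-05, limma-trend). MT-ND6 (-0.85), MT-ATP8 (-0.70) and MT-ATP6 (-0.64) were the others, the last pair being overlapping genes. MT-CO3 (-0.06), MT-ND4 (-0.09) and MT-CYB (-0.03) lay near 0.

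NAMPT, the gene of the FK866 target, which overlaps AC007032.1, was at 3159.6, 3392 and 2432 in Met, 2307, 3662 and 2351 in FK and 1830.3, 2102 and 1615 in DMSO. The Met and FK ranges overlapped and the difference of 0.13 had a 95% interval of -0.22 to 0.48 (adjusted p = 0.567, limma-trend), so a difference of either sign within that interval was not resolved. Against DMSO it was 0.69 in Met, a DEG, and 0.56 in FK (adjusted p = 0.0333, limma-trend). With the GC trend removed the difference between the drugs was 0.24 (adjusted p = 0.00400, limma-trend), and without FK replicate 2 it was 0.35 (adjusted p = 0.0400, limma-trend). Of the other 12 tested genes of NAD synthesis and nicotinamide handling, 2 were DEGs, both higher in Met. NMNAT2, which joins nicotinamide mononucleotide to ATP to form NAD, was at 191, 224 and 179 in Met and 67.0, 93.8 and 84.9 in FK. NNMT, which methylates nicotinamide and so removes the substrate of NAMPT, was at 568, 567 and 635 in Met and 316, 276 and 266 in FK. Both stood in FK near DMSO (-0.14 and -0.05 on the log2 scale). NAPRT, the entry enzyme of the route from nicotinic acid, had -0.54 and was under the fold threshold. Of 19 NAD consumers, the NAD glycohydrolase CD38 was lower in Met at low levels (31.8 ± 4.48 in Met and 63.6 ± 12.4 in FK), and PARP3 (0.91) and the mitochondrial deacylase SIRT5 (0.62) were higher. SIRT1 (-0.22) and PARP1 (-0.47) were not DEGs.

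Central carbon genes differed in a few members. Of 24 glycolysis and lactate genes, 2 were DEGs in each direction (median -0.20). LDHA, which regenerates NAD+ from NADH by making lactate, was at 28323, 28152 and 28483 in Met, 50490.2, 46214 and 46243 in FK and 49020.5, 48722 and 46838 in DMSO, and the log2 fold change of Met against FK was -0.75 ± 0.06 (adjusted p = 2.19e-07, limma-trend). SLC16A3, the lactate exporter MCT4, was lower as well (-0.90), and HK2 (0.63) and ENO2 (0.59) were higher near the threshold. The glucose transporter genes SLC2A1 (0.37) and SLC2A3 (0.15) were not DEGs. GOT1, the cytosolic aspartate transaminase, was at 16001, 15850.5 and 16879 in Met and 8509.7, 6980.2 and 7321 in FK (1.10 ± 0.07, adjusted p = 6.77e-08, limma-trend), while its mitochondrial counterpart GOT2 had -0.45. IDH3A (-0.60) was the only other DEG of 22 TCA cycle and malate-aspartate genes, and was none with libraries scaled to the same total or without Met replicate 3 or FK replicate 2.

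All 19 tested genes of cholesterol synthesis and uptake had negative log2 fold changes of Met against FK, with a median of -0.26, and 5 were DEGs lower in Met. IDI1, the isomerase that makes dimethylallyl diphosphate, was at 742, 744 and 657 in Met, 1189, 1380.1 and 1118 in FK and 869, 897 and 863 in DMSO. It differed by -0.78 ± 0.09 (adjusted p = 1.10e-05, limma-trend), with log2 fold changes against DMSO of -0.30 in Met and 0.48 in FK. DHCR7, a reductase late in the pathway, was at the edge of the fold threshold (-0.59). The master regulator SREBF2 (-0.07) was not a DEG. Of 10 fatty acid genes, FABP5 alone was a DEG (-0.59), at the edge of the fold threshold, which it missed under 7 of 19 alternatives (-0.49 with libraries scaled to the same total).

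A smaller group of genes stood high in FK and near DMSO in Met. EREG, a ligand of the EGF receptor, was at 9133, 13002 and 8508 in FK against 2914, 3045 and 2532 in Met and 3136, 3071 and 2991 in DMSO. The ranges of Met and DMSO overlapped, and the log2 fold change of Met against FK was -1.83 ± 0.13 (adjusted p = 9.07e-08, limma-trend). The other EGF ligands did not separate the drugs in this way. AREG (0.51), HBEGF (0.05), TGFA (-0.25) and EPGN (-0.91, adjusted p = 0.17, limma-trend) were not DEGs, and the feedback inhibitor ERRFI1 (0.62) and the receptor ERBB3 (0.72) were higher in Met, neither of them a DEG without FK replicate 1. Against DMSO, 4 of the 10 tested EGF ligand and receptor genes were DEGs higher in FK, EREG among them, and 4 were higher in Met. The list medians against DMSO were 0.59 in FK and 0.46 in Met. INHBA, the subunit of activin A, was at 264, 449 and 334 in FK and 116, 188 and 143 in Met (-1.22 ± 0.19, adjusted p = 1.81e-04, limma-trend). TXNIP, which binds thioredoxin and curbs glucose uptake, was at 1541, 1496 and 1452 in FK, 917, 794 and 776 in Met and 767, 661 and 805 in DMSO, and differed by -0.86 ± 0.09 (adjusted p = 6.88e-06, limma-trend). Its relatives ARRDC4 (-0.44) and ARRDC3 (-0.41), which share its regulation by MondoA, were not DEGs. CYP1A1, a target of the aryl hydrocarbon receptor, was at 646, 734 and 774 in FK and 206, 238 and 242 in Met, with the DMSO libraries (367, 265 and 322) between the drugs.

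Of 23 immediate early genes, which growth factors and stress induce within minutes, 7 were DEGs lower in Met and none was higher (1 was with libraries scaled to the same total), and the median of the list was -0.02 (0.08 with that scaling). The nuclear receptor gene NR4A2 was at 273, 487 and 356 in FK, 101, 119 and 143 in Met and 83.1, 85.7 and 127 in DMSO, a difference of -1.58 ± 0.25 (adjusted p = 2.09e-04, limma-trend). NR4A3 (-1.36) followed it, whereas NR4A1 (-0.11) did not. FOSB and FOS, partners of JUN in AP-1, separated the drugs with DMSO between or near FK. FOSB was at 80.5, 75.6 and 103 in Met, 328, 339 and 334 in FK and 157, 167 and 203 in DMSO, and FOS at 48.1, 58.6 and 92.3 in Met, 208, 209.7 and 178 in FK and 171, 147 and 183 in DMSO. EGR2 (-1.37), IER5 (-0.68) and IER3 (-0.63) were the others. JUN (-0.06), EGR1 (0.14), FOSL1 (-0.02) and MYC (0.52) were not DEGs, so the separation held for a part of the list. Feedback genes of the ERK pathway were split, with DUSP5 (1.21), DUSP6 (0.76) and ETV5 (0.74) higher in Met and DUSP4 (-0.86) and IER3 lower, of 18 tested.

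Cytokine genes also divided. Of 16 prostaglandin, chemokine and interleukin genes, 5 were DEGs lower in Met and 2 were higher. CXCL8 (interleukin 8), which recruits neutrophils, was at 3456, 4800.3 and 2654 in FK, 1943, 1832 and 1602 in Met and 957, 1328 and 911 in DMSO, so that both drugs stood above DMSO and FK above Met (-0.98 ± 0.18, adjusted p = 5.17e-04, limma-trend). IL11 was at 227, 258 and 275 in FK and 90.9, 94.5 and 86.2 in Met (-1.47 ± 0.14, adjusted p = 1.45e-06, limma-trend), with a DMSO mean of 111, and IL1B differed by -0.91, again with Met at the level of DMSO. CCL2, a monocyte attractant, was at 2038 ± 217 in Met, 4817 ± 561 in FK and 3965 ± 156 in DMSO, with log2 fold changes against DMSO of -0.96 in Met, a DEG, and 0.28 in FK, which was not. PTGS2 (-0.62) was the last of the 5. CXCL2 and CXCL3, neighbours of CXCL8 in the chemokine cluster of chromosome 4, had the opposite order, with CXCL2 at 379, 361 and 405 in Met and 276, 199 and 222 in FK (0.73 ± 0.13, adjusted p = 6.50e-04, limma-trend) and CXCL3 at 236, 241 and 205 in Met and 166, 125 and 125 in FK (0.72). CXCL1 (-0.42) was not a DEG. FK replicate 2 was the highest of the FK libraries for EREG, INHBA, NR4A2 and CXCL8, and without it their log2 fold changes were -1.64, -1.02, -1.37 and -0.76, all still DEGs lower in Met.

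The promoters of these chemokines differed in the letters found. The AP-1 motif TGANTCA, searched as above, was in those of CXCL8 and IL11, 2 of the 4 matched promoters of list members lower in Met, and in 7.76% of all promoters and 4.59% of those of genes tested. It was in 7.35% of promoters of DEGs higher in Met, in 5.13% of those of DEGs lower in Met, and in none of the 5 matched promoters of immediate early genes lower in Met. The NF-kappaB motif, GGGNN followed directly by TTTCC, was in both CXCL2 and CXCL3, and in 1.92% of all promoters and 2.16% of those of genes tested, with 1.28% for DEGs higher and 2.2% for DEGs lower in Met. Only these exact letters were searched, with N as any base, and only in these 300-base windows. A site with another letter changed would be missed, so the absence of a match says nothing about binding. The stretches are shown for the letters found, which the capitals mark, and a link between these letters and the responses was not tested. CXCL2 and CXCL3 are close paralogs with much of this stretch in common, so their reads may also be shared.
CXCL2 (chr4:74099234-74099303, minus strand): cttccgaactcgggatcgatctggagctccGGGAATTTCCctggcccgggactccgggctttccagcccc
CXCL3 (chr4:74038729-74038798, minus strand): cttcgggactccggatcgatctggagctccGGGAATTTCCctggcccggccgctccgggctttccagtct
CXCL8 (chr4:73740402-73740468, plus strand): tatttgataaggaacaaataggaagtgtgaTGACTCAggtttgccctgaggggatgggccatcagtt
IL11 (chr19:55370523-55370589, minus strand): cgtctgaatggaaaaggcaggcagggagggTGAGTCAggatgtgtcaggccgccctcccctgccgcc

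**Figure D4:**
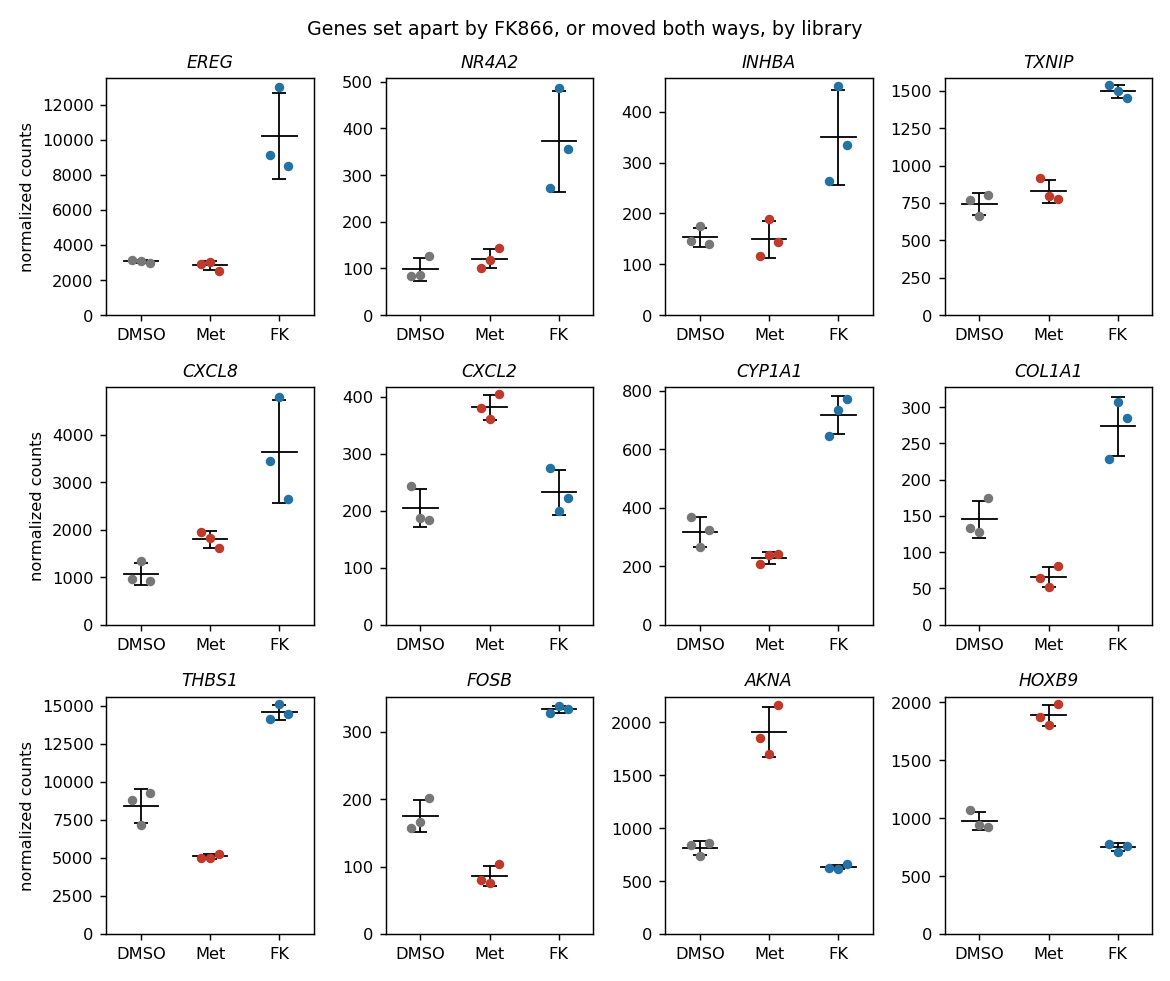
Normalized counts (y axis, linear, from 0) of 12 genes in the 3 DMSO, 3 Met and 3 FK libraries, with the mean as a line and the SD as an error bar (n = 3). EREG, NR4A2, INHBA and TXNIP stand high in FK alone of the 3 groups, CXCL8 and CXCL2 have opposite orders of Met and FK, and for COL1A1, THBS1, FOSB, AKNA and HOXB9 the 3 DMSO libraries lie between the drugs.

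For some genes the DMSO libraries lay between the drugs. Of the DEGs whose mean was 100 or more, those in which the 3 DMSO libraries lay between the Met and FK libraries without overlap numbered 130 of 686 higher in Met and 123 of 791 lower in Met. This order was not tested, and the share of all genes tested that have it was not computed. It does not require a DEG of either drug against DMSO. LONP1 had this order and was a DEG against DMSO in neither drug (0.44 in Met and -0.26 in FK). THBS1, which encodes the matrix protein thrombospondin-1, was at 4995, 5014 and 5256 in Met, 8796, 7135 and 9223 in DMSO and 14110.5, 15072 and 14476 in FK (-1.52 ± 0.08 between the drugs, adjusted p = 1.90e-08, limma-trend). COL1A1, the alpha1 chain of type I collagen, was at 63.8, 52.0 and 80.2 in Met, 133, 128 and 175 in DMSO and 228, 307 and 286 in FK (-2.06 ± 0.19, adjusted p = 1.37e-06, limma-trend), and overlaps the gene AC015909.1. They were the 2 DEGs of 18 matrix and integrin genes, and 2 others were DEGs higher in Met with libraries scaled to the same total. FN1 (0.10) and ITGB1 (0.22) were not called. The calcium buffer CALB1 (-2.31), the hyaluronan synthase HAS2 (-1.54), the G protein regulator RGS4 (-1.54) and the repressor PRDM1 (-1.60) had the same order. In the reverse order, AKNA, a centrosomal protein, was at 1851, 1704 and 2165 in Met, 840.1, 735 and 856 in DMSO and 622, 618 and 659 in FK (1.58 ± 0.09, adjusted p = 2.63e-08, limma-trend), and the homeobox gene HOXB9 at 1876, 1805 and 1984 in Met, 1069, 939 and 925 in DMSO and 775, 709.5 and 763 in FK (1.33 ± 0.09, adjusted p = 4.40e-08, limma-trend). N4BP3 (1.62), ROBO3 (1.18), MOCOS (1.16) and the phosphatase DUSP5 joined them.

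Other genes stood far below FK. SOX2, a stem cell transcription factor, was at 499, 545 and 546 in Met, 1785, 1979.9 and 1869 in FK and 1876, 1837 and 2147 in DMSO (-1.82 ± 0.10, adjusted p = 2.02e-08, limma-trend), and lies within SOX2-OT. The epithelial factor GRHL3 (-1.90) and the AMPA receptor auxiliary CNIH2 (-2.05) had values against DMSO of -1.83 and -2.42 in Met and of 0.07 and -0.37 in FK. SULT1B1, a sulfotransferase, was at 50.2, 58.6 and 51.7 in Met and 339, 446 and 385 in FK, with 252, 366 and 223 in DMSO. Of 16 TGF-beta and BMP genes, TGFBI (-1.46), INHBA, ID3 (-0.74) and ID2 (-0.70) were DEGs lower in Met, 4 in all, and BMP6 was higher (1.07). MYCL, a relative of MYC, was higher in Met (262 ± 22.0 against 58.2 ± 8.28, 2.16), as were the vesicle gene RAB39B (2.26), the lysosomal LAMP3 (2.54) and ADM2, a secreted peptide of the adrenomedullin family (2.49).

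Other functions did not separate the drugs, or did so in single genes. None of 44 large-subunit ribosomal protein genes was a DEG (median 0.06, from -0.26 to 0.47), and 1 of 24 ribosome biogenesis genes was, NCL (-0.69). Of 17 hypoxia-inducible genes, EGLN3 (-1.23) and ADM (-0.59) were lower and MXI1 (0.76) higher in Met, with ADM at the edge of the fold threshold and not a DEG under 7 of 19 alternatives, while VEGFA (-0.40) was not a DEG and NDRG1 (0.43, 95% interval 0.28 to 0.59, adjusted p = 2.31e-04, limma-trend) stayed under the fold threshold. Of 17 circadian genes, DBP (0.68) and NPAS2 (0.78) were higher in Met. Of 23 interferon-stimulated genes, OAS3 (-0.82) and IFIT1 (-0.69) were lower and ISG20 (0.88) higher. TBP, a common reference gene of quantitative PCR, differed by -0.07 (95% interval -0.24 to 0.09) and was not a DEG.

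**Figure D5:**
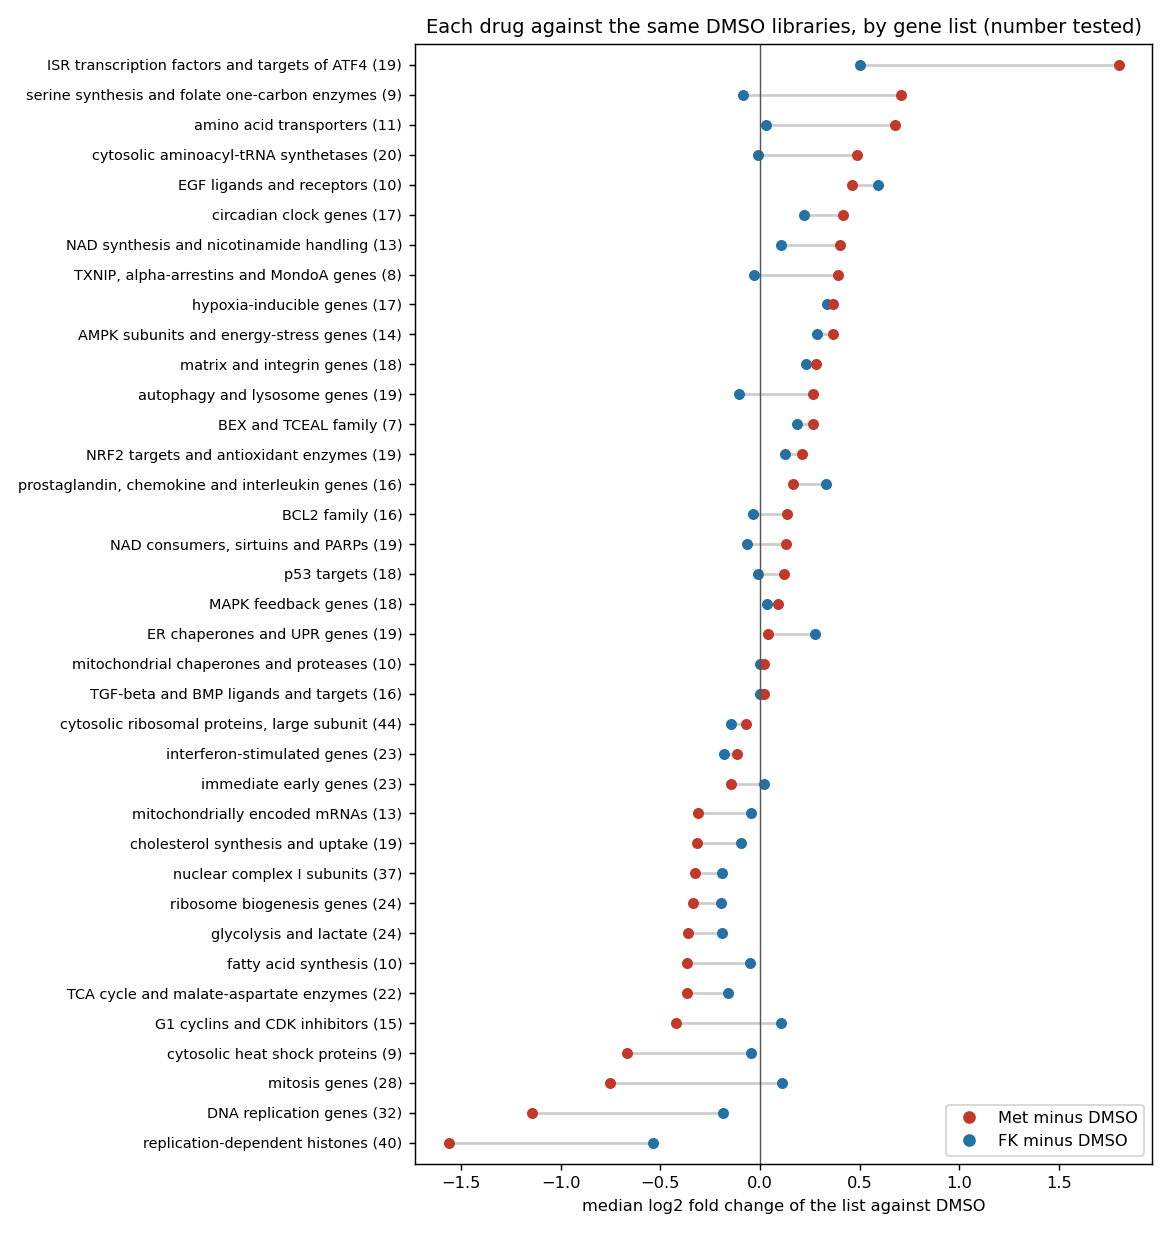
Median log2 fold change against the same 3 DMSO libraries (x axis) of the tested members of each of 37 gene lists (y axis, number tested in parentheses), with Met in red and FK in blue, joined by a grey line. The targets of ATF4 stand at 1.80 in Met and 0.50 in FK, mitosis genes at -0.75 and 0.11, DNA replication genes at -1.15 and -0.19 and histones at -1.56 and -0.54. The 2 drugs share the DMSO libraries, so their values are not independent.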

How the data were processed

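Total RNA of KP4 cells was sequenced as read pairs after depletion of ribosomal RNA, in 3 libraries per treatment. Per the labels and the methods of the study, cutadapt was used for trimming, STAR for alignment to hg38 and featureCounts for read pairs per gene, after which the authors scaled the counts with DESeq2 size factors, 1 per library. The annotation and strand setting are not given in the sources used here, so genes that overlap a neighbour, and near-identical copies, are uncertain. The deposited values are a signal that is never negative, the normalized count of 36601 genes, of which 9803 have no reads. In all 12 libraries 100% of the values came out as whole read pairs within 0.01, which gave 30667735 to 41052203 read pairs per library. Replicates of a group differed beyond counting noise, with chi-square values of 5.69 to 51.5 per degree of freedom, so none was counted as a copy.

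The comparison used limma-trend (limma 3.58.1, R 4.3.3) on log2(normalized count + 1), a scale that understates the change of low genes, fitting a mean for each treatment over the 12 libraries together, which share 1 estimate of the spread. Genes had a mean of at least 10, p-values were adjusted over 15376 genes (Benjamini-Hochberg), tests were two-sided, and DEGs had an adjusted p under 0.05 and a fold change over 1.5. The fit was also run on simulated counts drawn independently and with no GC trend. That run checks the code and not the error rate in these libraries. Alternatives were 2 other pseudocounts, 2 other filters, scaling to the same total or by TMM, only the 6 or 9 libraries, edgeR (4.0.16) and DESeq2 (1.42.0) on the recovered read pairs, removal of GC and length trends, the replicate number as a block, the adjusted p with no fold threshold, and leaving out single Met or FK libraries. Same-numbered Met and FK libraries deviated together with r = 0.02, 0.40 and 0.30 across genes as deposited and 0.12, 0.14 and 0.12 with GC and length trends removed. The labels give no shared batch for a number, so the comparison carries no block, and the fit with one is given as an alternative.

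The members of the comparison and the 37 gene lists were chosen with earlier results of these data known. Genes named are the 12 largest and 12 smallest fold changes among non-overlapping DEGs with a mean of at least 100, genes the study names, up to 4 DEGs per list, and up to 8 genes per direction with DMSO between the drugs. Other list members were named after their values were seen, and a few genes of the rule and lists are not reported here. Genes were matched to RefSeq promoters (GRCh38.p14) by symbol. Positions printed are those of the promoter table. No interval for counting error was computed, since the replicates carry the error.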

Additional observations from a re-analysis of the deposited data

How the results depend on the processing

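The 1243 DEGs higher and 1081 lower in Met stayed within 1.5 times these counts under each alternative but 1. Counting genes by the adjusted p alone, with no fold threshold, gave 2643 higher and 2995 lower. With each Met or FK library left out in turn, 1107 to 1313 genes were higher and 988 to 1116 lower. edgeR gave 1277 and 1061, DESeq2 1222 and 1057, and scaling to the same total 1637 and 805. Removal of GC and length trends gave 1267 and 1125, with FK replicate 2 the library whose GC slope stood apart among the Met and FK libraries. With the replicate block the counts were 1309 and 1133 and all 2324 DEGs were kept, and with the GC trend also removed 1300 and 1143. As deposited, same-numbered Met and FK libraries deviated together with r = 0.02, 0.40 and 0.30, and Met replicate 1 correlated best with FK replicate 2 (r = 0.10). With GC and length trends removed, r was 0.12, 0.14 and 0.12 and each library correlated best with its own number, a hint from the data that the labels do not give. No DEG changed sign in any of these, and 84.2% to 100% were kept. Of 2828 values for 149 named genes, 2807 kept their direction and their side of an adjusted p of 0.05, 11 lost and 9 gained it, and 1 changed sign, TBP, at 0.028 with libraries scaled to the same total (not called). By both criteria of a DEG, 59 values in 18 genes lost the call, most often ADM and FABP5 (7 each) and PHLDA3 (6), and 4, all NDUFB3, gained it. The losses of the adjusted p were in PHLDA3, BMF and BIK, the gains included NAMPT and OSGIN1, and the cause was not tested. Genes near the mean of 10 carry wide errors at this depth.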

Other observations

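The libraries given both drugs (Met+FK) were compared with no group above, although they entered the shared estimate of the spread and the filters on the mean. Their values show on which side the separating genes stood when both targets were blocked. TRIB3 had a mean of 12753 ± 978 normalized counts in Met+FK (SD, n = 3) against 9817 ± 1091 in Met and 1809.5 ± 236 in FK, and RRM2 7621 ± 139 against 9401 ± 223 and 29749 ± 1047. Genes that were high in FK alone did not keep that level. EREG, a ligand of the EGF receptor, was at 3766, 3489.9 and 3151 in Met+FK, INHBA, the subunit of activin A, at 123, 144 and 128 and IL11 at 103, 119 and 140.5, in each case below all 3 FK libraries. CXCL8 at 3096, 3154 and 2724 overlapped the FK range, and TXNIP at 1262, 1339 and 1197 lay between the Met and FK libraries without overlap. ATF3, raised by each drug alone, was at 5911, 6441 and 6230.3, above every library of either single drug. The matrix genes that the drugs moved apart, THBS1 and COL1A1, were at 5793 ± 234 and 70.6 ± 12.9, near the Met means of 5088 and 65.3. These values are given without a test.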
